A study of Caenorhabditis elegans with 8 samples.

Results

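The expression profiles of a pair of *C. elegans* double mutants were set against each other: *hpl-1*(tm1624); *hpl-2*(tm1489) animals and *hpl-1*(tm1624) *his-24*(ok1024) animals, both in the N2 background. The alleles are those that the study gives with its array results. By their labels both strains lack *hpl-1*, and they differ in whether *hpl-2* or *his-24* is deleted as well. The comparison was made up of the 4 arrays, of 8 in the series, that carry these labels, which were 2 arrays for *hpl-1*; *hpl-2* and 2 for *hpl-1 his-24*. For each array, 600 ng of total RNA from whole animals was amplified and labelled with Cy3. A sample was a pool of 80 to 100 worms that held L4 larvae together with young adults, grown at 21 °C, and the share of each stage in a pool was not analysed here. The other 4 arrays held the double mutant *hpl-2*; *his-24* and a triple mutant whose label joins the 3 deletions, and wild type was not analysed here, so that a higher value in one double mutant could not be told apart from a lower value in the other.

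HP1 proteins bind histone H3 methylated at lysine 9 through their chromodomain and hold chromatin in a repressed state, and HPL-1 and HPL-2 are the HP1 proteins of *C. elegans*. Linker histones bind the DNA where it enters and leaves the nucleosome, and HIS-24 is one of the linker histone (H1) variants of the worm. Loss of *hpl-2* is known to derepress germline transgenes and to act with other synMuv B genes, a class of chromatin regulators that keep larval vulval and germline programs off in the soma.

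All levels below are log2 signals relative to the 75th percentile of the same array, so that a gene at 0 was as bright as that percentile. A gene counted as measured on an array when its probe was well above background there, and as dark in a strain when it was not measured on either array of that strain. Fold changes are *hpl-1*; *hpl-2* over *hpl-1 his-24*, on the log2 scale and with the standard error (SE), and adjusted p-values are those of limma's two-sided test over all genes tested. A gene was called when its adjusted p was below 0.05 and its log2 fold change was beyond 1.5. For a gene that was dark in 1 strain the fold is a lower bound. The 75th percentile lay at 8501 and 5179 intensity units on the *hpl-1*; *hpl-2* arrays and at 4873 and 5661 units on the *hpl-1 his-24* arrays, and each of these arrays measured 77.3% to 80.0% of its probes. Replicate arrays of both strains correlated at 0.997 across genes, which are not independent replicates. Of 189 marker genes of 9 tissues, 188 were measured on all 4 arrays. These 4 arrays were scanned on the same day, on 4 slides, so that no slide held both strains. Each *hpl-1*; *hpl-2* array shared its slide with a triple-mutant array. Both *hpl-2*; *his-24* arrays lay on 1 slide scanned on another day, and their dimmest probes well above background stood at -8.15 and -8.28, against -7.15 to -6.39 on the other 6 arrays, so that levels of that strain are given beside the others as values only.

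The deleted genes were examined first, because they check the labels. The linker histone gene *his-24* (M163.3, chromosome X) stood at 0.31 and 0.46 in *hpl-1*; *hpl-2*, against -8.92 and -8.61 on the *hpl-1 his-24* arrays. The gene was dark in *hpl-1 his-24*, and its signal was at least 126-fold higher in *hpl-1*; *hpl-2*, as its label calls for. The probe of *hpl-1* (K08H2.6, chromosome X) stood at -9.04 and -8.81 in *hpl-1*; *hpl-2*, against -0.36 and -0.30 on the *hpl-1 his-24* arrays. Its signal was at least 78.9-fold lower in *hpl-1*; *hpl-2*, although both labels name *hpl-1* as deleted. The study gives the same *hpl-1* allele for both strains with its array results. In its table of sterility and vulval defects it gives another *hpl-1* allele for *hpl-1*; *hpl-2*. Whether the arrays differ in this allele was not tested. The *hpl-1* probe was also bright in the triple mutant, whose label names *hpl-1*, with a mean level of -0.57. In *hpl-2*; *his-24*, whose label does not, its mean was -0.57. The array files do not place this probe relative to the deleted stretch, and whether the *hpl-1 his-24* arrays lack *hpl-1* was not settled. Every direction below is therefore relative to the arrays that carry the label *hpl-1 his-24*, and that strain name stands for the label.

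Both transcripts of *hpl-2* (chromosome III) were measured on all 4 arrays. K01G5.2b stood at 0.33 and 0.52 in *hpl-1*; *hpl-2*, against 1.04 and 1.16 in *hpl-1 his-24* (log2 fold change -0.68, SE 0.11, adjusted p = 0.0038). K01G5.2a stood at -0.85 and -0.78 in *hpl-1*; *hpl-2*, against 0.43 and 0.52 in *hpl-1 his-24* (-1.29, SE 0.09, adjusted p = 0.00011). For both transcripts the *hpl-1*; *hpl-2* arrays lay below the others without overlap, and neither reached the fold of a call. Among the linker histones that were not deleted, *hil-1* fell (-0.77 and -1.0 in *hpl-1*; *hpl-2*, against 0.08 and -0.26 in *hpl-1 his-24*; log2 fold change -0.80, SE 0.14, adjusted p = 0.0058). The signal of *hil-7* was higher, at -0.76 and -1.33 in *hpl-1*; *hpl-2*, against -2.13 and -1.76 in *hpl-1 his-24* (log2 fold change 0.90, SE 0.21, adjusted p = 0.015), but not past the threshold without 1 array of either strain (adjusted p up to 0.0889). *hil-5* passed the adjusted p narrowly (0.33, SE 0.10, adjusted p = 0.043), and lost it in 7 of the alternatives. The fold changes of *hil-2*, *hil-3*, *hil-4* and *hil-6* lay between -0.17 and 0.22 and did not pass the test.

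**Figure D1:**
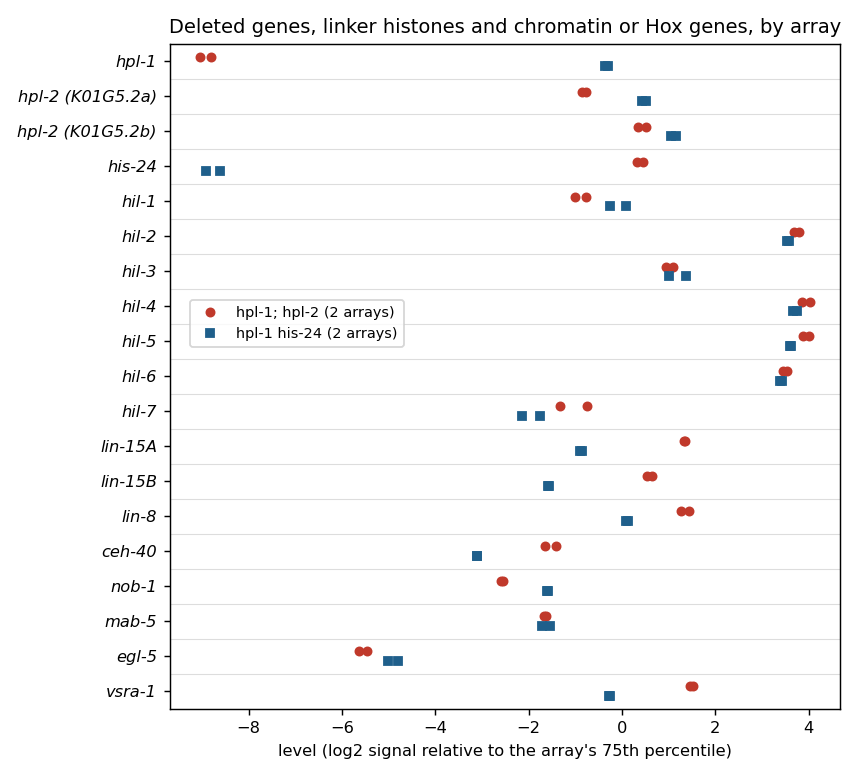
Level of each gene on single arrays (x axis, log2 signal relative to the 75th percentile of the array), with circles for the 2 *hpl-1*; *hpl-2* arrays and squares for the 2 *hpl-1 his-24* arrays. The *hpl-1* circles lie near -9 and the *his-24* squares near -9, while the squares of *hpl-1* lie at -0.36 and -0.30.

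The strains differed in a sizeable part of the transcriptome. Of 17092 gene identifiers tested, which stand for 16487 genes, 1395 (8.16%) were called, of which 840 (4.91%) were higher in *hpl-1*; *hpl-2* and 555 (3.25%) lower. At the adjusted p alone, 3458 (20.2%) were higher and 3203 (18.7%) lower, 39% together, and the median log2 fold change over all identifiers was 0.03. The arrays of the strains did not overlap for 76.3% of the identifiers, so that absence of overlap is common in these data. Many calls rest on a gene that was dark in 1 strain: 281 of the higher calls were dark in *hpl-1 his-24*, and 177 of the lower calls were dark in *hpl-1*; *hpl-2*. Of these, 19 higher and 7 lower calls were dark in both strains, and no fold is given for such genes. Among the 15091 identifiers measured on all 4 arrays, 479 (3.17%) were called higher and 353 (2.34%) lower. Log2 fold changes beyond 3 were reached by 195 of the higher and 121 of the lower calls. The number of calls depended on how dim spots were treated, with 453 higher and 362 lower under normexp background correction and 421 and 323 in the log2 values that the authors deposited.

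**Figure D2:**
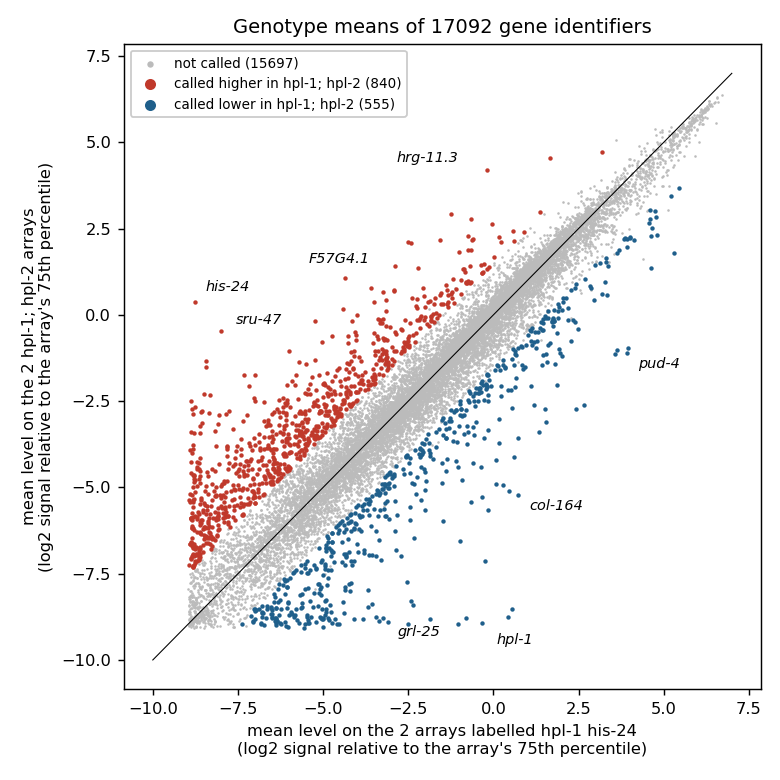
Mean level of each of 17092 identifiers in *hpl-1*; *hpl-2* (y axis) against its mean in *hpl-1 his-24* (x axis), both as log2 signal relative to the 75th percentile, with the line of equal levels. The 840 genes called higher lie above the line and the 555 called lower below it, and both sets include a band near -9 of genes that are dark in 1 strain.

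The largest rise among genes measured on all 4 arrays was that of F57G4.1 (chromosome V), at 1.06 and 1.08 in *hpl-1*; *hpl-2*, against -4.38 and -4.36 in *hpl-1 his-24* (log2 fold change 5.44, SE 0.11, adjusted p = 2.3e-06). The chemoreceptor gene *srx-70* followed, at -0.21 and -0.16 against -5.22 and -5.23 in *hpl-1 his-24* (5.04, SE 0.17), and then the F-box gene *fbxa-43*, at -1.09 and -1.02 against -6.14 and -5.89 in *hpl-1 his-24* (4.96, SE 0.11). Each of these genes was high on both *hpl-1*; *hpl-2* arrays and low on both *hpl-1 his-24* arrays. The other 9 of the 12 largest rises, F15D4.5, F56A4.3, T21C12.7, *hrg-11.3*, T21C12.4, ZK218.5, C38D9.2, F19H6.5 and F54F7.6, had log2 fold changes from 4.14 to 4.61. *hrg-11.3*, a gene of the heme-responsive *hrg* class, stood at 4.16 and 4.26 in *hpl-1*; *hpl-2*, against -0.18 on both *hpl-1 his-24* arrays. In the triple mutant its mean level was -0.73 and in *hpl-2*; *his-24* it was 3.77, so that it was low in *hpl-1 his-24* and in the triple mutant. F15D4.5 had mean levels of 2.06 in the triple mutant and 2.61 in *hpl-2*; *his-24*, near its 2.2 and 2.04 in *hpl-1*; *hpl-2*.

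Genes that were dark on both *hpl-1 his-24* arrays gave further large rises. After *his-24*, the chemoreceptor gene *sru-47* had the largest bound, at -0.61 and -0.35 in *hpl-1*; *hpl-2* and at least 69.2-fold higher than in *hpl-1 his-24* (adjusted p = 2.3e-06). Its mean level was -0.99 in the triple mutant and -1.1 in *hpl-2*; *his-24*, so that of the 4 strains it was dark in *hpl-1 his-24* only. *irld-60*, of a family of proteins related to the insulin and EGF receptor L domain, was at least 38.3-fold higher, and F14F9.6 at least 33.6-fold higher. The mean level of *irld-60* was -1.35 in the triple mutant and -1.69 in *hpl-2*; *his-24*, close to its -1.41 and -1.25 in *hpl-1*; *hpl-2*.

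On the other side, the cuticle collagen gene *col-164* fell furthest among genes measured on all 4 arrays, with -5.29 and -5.16 in *hpl-1*; *hpl-2*, against 0.70 and 0.75 in *hpl-1 his-24* (log2 fold change -5.95, SE 0.09, adjusted p = 1.1e-06). Of the 12 largest falls, 5 were collagen genes, *col-164*, *col-102*, *col-50*, *col-43* and *col-2*, and 1 was the hedgehog-related gene *grl-17*. The others were *fip-1*, Y67D8C.6, *cld-1*, Y38E10A.9, T19H12.6 and *pud-4*. The folds of *fip-1* (-5.58, SE 0.80) and *cld-1* (-5.26, SE 0.64) carried the widest errors of the 12, and *cld-1* was far brighter in the triple mutant (mean 4.88) than on the *hpl-1 his-24* arrays (2.75 and 2.57).

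The largest bounds on a fall were those of a neighbouring pair on chromosome V. ZK228.4 stood at -8.35 and -8.68 in *hpl-1*; *hpl-2*, against 0.54 and 0.54 in *hpl-1 his-24*, which is at least 144-fold lower, and ZK228.3 was at least 133-fold lower. Both were bright in the other strains, where ZK228.3 had means of -0.60 in the triple mutant and -0.61 in *hpl-2*; *his-24*, so that they were dark in *hpl-1*; *hpl-2* only. The gene next to *his-24* by its locus name, *ztf-14* (M163.2), showed the same distribution, at -8.43 and -8.37 in *hpl-1*; *hpl-2*, against -2.26 and -2.45 in *hpl-1 his-24*, which is at least 19.4-fold lower. Its means were -2.64 in the triple mutant and -2.43 in *hpl-2*; *his-24*. *ztf-14* was named after its values were seen. Changes in the DNA that a strain carries beside its labelled deletions were not tested.

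F-box proteins bind Skp1-related proteins and bring substrates to ubiquitin ligases, and nematodes have expanded this family widely. Of 338 F-box genes on the array, 296 were tested, of which 89 were called higher and 11 lower (30.1% and 3.72%, against 4.91% and 3.25% of all identifiers). Their median log2 fold change was 0.55, against 0.03 over all identifiers. Of the 296, 211 were measured on all 4 arrays, with a median of 0.35, and in these 40 were called higher and 4 lower (3.17% and 2.34% of all identifiers measured so). Dim spots weighed on these counts, as normexp correction called 40 higher and 3 lower and the log2 values that the authors deposited gave 30 and 3.

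When the family was divided by gene name, a division made after the values were seen, the rises were uneven. Of 87 *fbxb* genes tested, 62 were called higher and 1 lower, with a median of 2.06, and at the adjusted p alone 75 were higher and 2 lower. Of 168 *fbxa* genes, 17 were called higher and 10 lower, with a median of 0.13, and of 41 *fbxc* genes 10 were called higher and 0 lower by limma, with a median of 0.76 and 1 lower at an unadjusted p under 0.05. Among the 46 *fbxb* genes measured on all 4 arrays, 30 were called higher and 0 lower by limma (median 1.97), with 1 lower at an unadjusted p under 0.05. The median level of the *fbxb* genes was -4.39 and -4.17 in *hpl-1*; *hpl-2* and -6.15 and -6.32 in *hpl-1 his-24*, with -4.76 and -4.83 in the triple mutant and -4.59 and -4.45 in *hpl-2*; *his-24*. The median log2 fold change of the *fbxb* genes was 1.1 to 2.28 over all alternatives, with 28 calls higher under normexp correction and 22 in the deposited log2 values. The counts of *fbxa* were then 6 higher and 3 lower with normexp correction and 4 and 3 in the deposited log2 values, and those of *fbxc* were 6 and 4 higher.

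Single *fbxb* genes moved alike on many chromosomes, with called rises numbering 31 on chromosome II, 11 on V, 7 each on I and IV, 5 on III and 1 on X. *fbxb-17* stood at -2.62 and -2.61 in *hpl-1*; *hpl-2*, against -6.14 and -6.06 in *hpl-1 his-24* (log2 fold change 3.48, SE 0.18, adjusted p = 3.4e-05). *fbxb-69* stood at -3.01 and -2.90 in *hpl-1*; *hpl-2*, against -6.29 and -6.25 in *hpl-1 his-24* (3.32, SE 0.16). *fbxb-117* was dark in *hpl-1 his-24* and at least 3.54-fold higher (adjusted p = 6.6e-06). Each of these genes was high on both *hpl-1*; *hpl-2* arrays and low on both *hpl-1 his-24* arrays, and *fbxb-17* and *fbxb-69* were named after their values were seen. In the other direction, *fbxa-185* fell, at -4.54 and -4.51 in *hpl-1*; *hpl-2*, against -1.33 and -1.45 in *hpl-1 his-24* (-3.13, SE 0.14, adjusted p = 2.2e-05), and *fbxb-21* was the *fbxb* gene called lower (at least 1.71-fold). Members of this family resemble each other in sequence, and a probe may read more than one of them.

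MATH domain proteins, many of which are substrate adaptors of cullin ligases, rose in part. Of 78 tested, 11 were called higher and 0 lower by limma (14.1% and 0%, against 4.91% and 3.25% of all identifiers), with a median of 0.30. At the adjusted p alone 34 were higher and 11 lower (43.6% and 14.1%, against 20.2% and 18.7%). In the 65 measured on all 4 arrays, with a median of 0.22, 4 were called higher and 0 lower by limma. Of all identifiers measured so, 3.17% were called higher and 2.34% lower. Among the calls higher, 3 *math* and 2 *bath* genes were dark in *hpl-1 his-24*. Of the 11 calls, 5 were among the 9 *math* genes that were tested from a single cosmid on chromosome II, C16C4, which was picked after the values were seen. One of these calls, *math-7*, was dark in both strains. *math-6* stood at -2.53 and -2.48 in *hpl-1*; *hpl-2*, against -7.28 and -6.74 in *hpl-1 his-24* (log2 fold change 4.51, SE 0.23, adjusted p = 3.4e-05), where 1 of these arrays did not measure it, and *math-5* was at least 13-fold higher (adjusted p = 7.2e-05). In the triple mutant the mean of *math-6* was -3.62 and that of *math-5* was -3.37. No MATH gene was called lower by limma, though 12 were lower at an unadjusted p under 0.05, and *bath-26* (-1.46, SE 0.25) and *math-21* (-1.28, SE 0.28) were lower at the adjusted p alone. With normexp correction, as in the deposited log2 values, 7 were called higher.

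**Figure D3:**
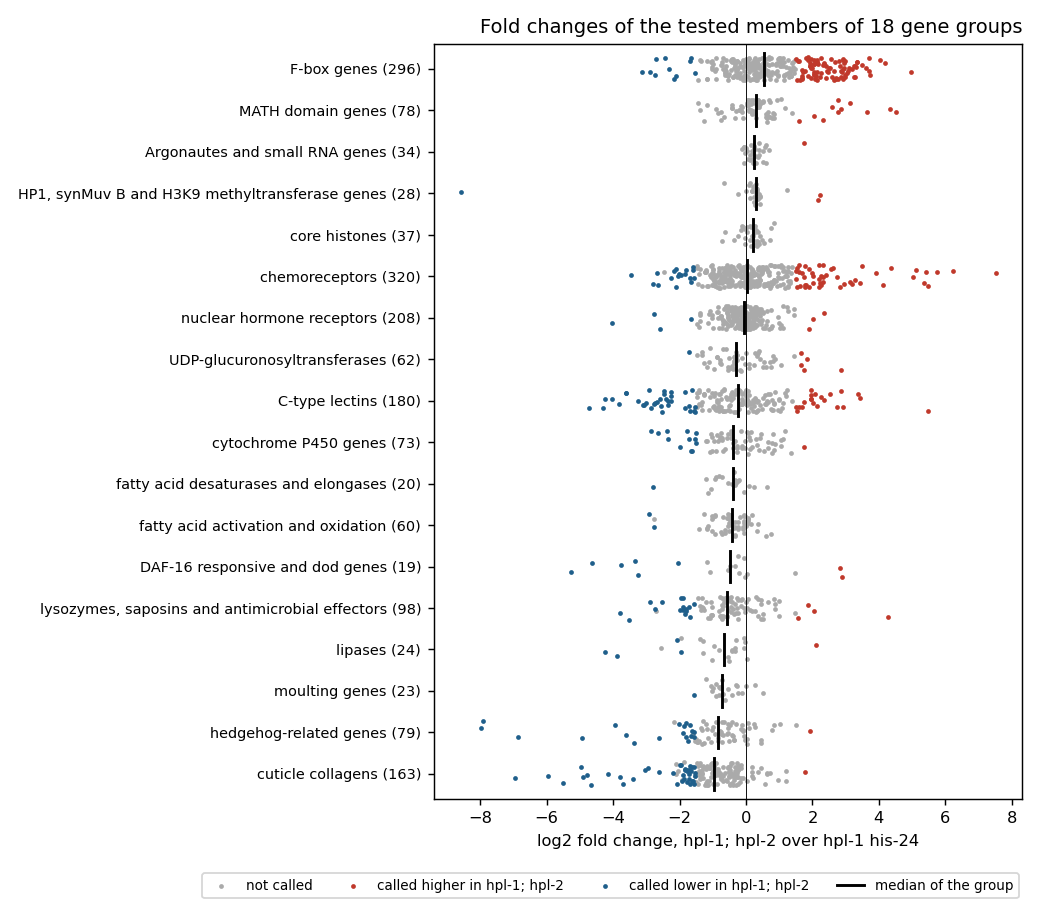
Log2 fold change, *hpl-1*; *hpl-2* over *hpl-1 his-24* (x axis), of each tested member of 18 gene groups, with the number tested in parentheses, called genes in colour and the group median as a black bar. The F-box group reaches far to the right, with a median of 0.55, and the collagens and hedgehog-related genes far to the left, with medians of -0.98 and -0.85.

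Called genes often lay next to each other. On the array's own positions, 36.1% of the genes called higher had a neighbour among the tested genes that was also called higher, while 9.28% of all genes tested had such a neighbour. For genes called lower the shares were 30.3% and 6.26%. Neighbours are often copies of one another, so that these shares count members of families more than once. Runs of 4 or more genes called in the same direction, which were found after the values were seen, numbered 12 for rises and 4 for falls.

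One run of 7 genes lay on chromosome I, C17H1.2 followed by *pals-2*, *pals-3*, *pals-4*, *pals-8*, *pals-7* and *pals-5*, all called higher. *pals* genes encode proteins with the ALS2CR12 signature, and *pals-5* is widely used as a reporter of the response to microsporidia and Orsay virus. *pals-7* stood at -2.08 and -2.0 in *hpl-1*; *hpl-2*, against -5.54 and -6.13 in *hpl-1 his-24* (log2 fold change 3.80, SE 0.20, adjusted p = 4.1e-05), and *pals-5* was at least 3.78-fold higher (adjusted p = 3.4e-05). Over the whole genome 28 *pals* genes were tested. Of these, 16 were called higher and 0 lower by limma (4.91% and 3.25% of all identifiers). Their median was 1.76, and 4 were lower at an unadjusted p under 0.05. Of the 16 called, 4 were dark in *hpl-1 his-24*. Among the 21 *pals* genes measured on all 4 arrays, 12 were called higher and 0 lower by limma. *pals-22* and *pals-25*, regulators of that response that act against each other, did not pass the test (0.06, SE 0.10, and 0.11, SE 0.12). Mean levels of *pals-7* were -1.03 in the triple mutant and -0.51 in *hpl-2*; *his-24*. With normexp correction 14 *pals* genes were called higher, and 13 in the deposited log2 values.

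Another run lay on chromosome IV and held *skr-13*, *skr-9*, *skr-8* and *skr-12*, Skp1-related genes whose products join F-box proteins to cullins. *skr-9* stood at -0.04 and 0.24 in *hpl-1*; *hpl-2*, against -3.18 and -3.12 in *hpl-1 his-24* (log2 fold change 3.25, SE 0.19, adjusted p = 6.0e-05). Of 20 *skr* genes tested, 7 were called higher and 0 lower by limma (4.91% and 3.25% of all identifiers). At the adjusted p of limma alone 12 were higher and 0 lower (20.2% and 18.7% of all identifiers). At an unadjusted p under 0.05 the counts were 13 and 0. *skr-1*, the member that acts as the core Skp1, was not among them (-0.14, SE 0.11, adjusted p = 0.37). The 7 called genes had log2 fold changes from 1.96 to 3.25 and were measured on all 4 arrays.

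The longest run of falls was on chromosome V, where 10 neighbours from C13A2.9 to *gtnt-21* were called lower, most of them dark in *hpl-1*; *hpl-2*. C13A2.9 was at least 18.5-fold lower and *gtnt-6* at least 8.35-fold lower. A second run on chromosome V was made up of *pud-2.1*, *pud-3*, *pud-4* and *pud-1.1*, genes named for proteins that are up-regulated in *daf-2* mutants. *pud-4* stood at -1.15 and -1.06 in *hpl-1*; *hpl-2*, against 3.92 and 3.91 in *hpl-1 his-24* (log2 fold change -5.03, SE 0.09, adjusted p = 2.0e-06), and the log2 fold changes of the other 3 were -4.69 to -3.28. Their median level was 0.10 and 0.14 in *hpl-1*; *hpl-2*, while the triple mutant had 2.62 and 2.58, and it was 2.19 and 2.1 in *hpl-2*; *his-24* and 4.29 and 4.26 in *hpl-1 his-24*. The order of the strains was the same for all 4 genes, with *hpl-1*; *hpl-2* lowest and *hpl-1 his-24* highest. Paired copies in this run are alike in sequence and may share signal.

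**Figure D4:**
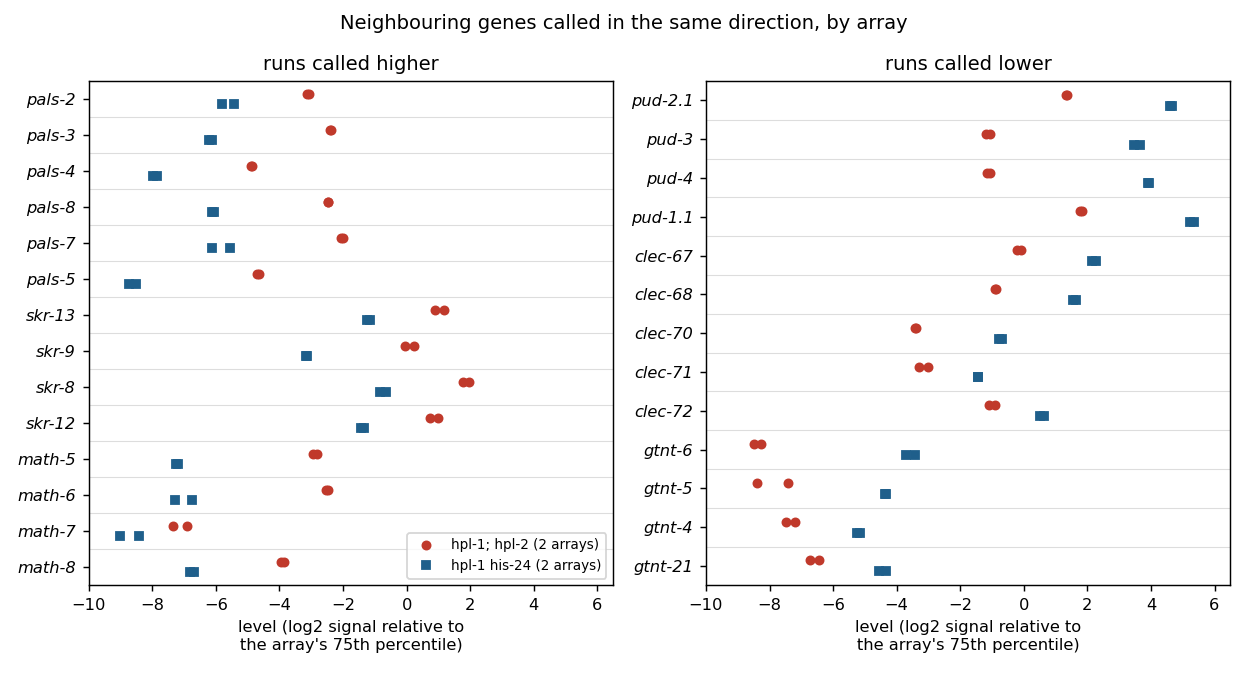
Level of single genes on each array (x axis, log2 signal relative to the 75th percentile of the array) in 3 runs called higher (left, *pals*, *skr* and *math* genes) and 3 called lower (right, *pud*, *clec* and *gtnt* genes), with circles for *hpl-1*; *hpl-2* and squares for *hpl-1 his-24*. The strains stand apart for every gene drawn, as for *pud-4*, with circles at -1.15 and -1.06 and squares at 3.92 and 3.91. For *math-7*, which was dark in both strains, the points lie among signals not well above background.

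Many of the falls were of cuticle genes. Collagens are the main structural proteins of the cuticle and are made by the hypodermis in pulses around each moult. Of 163 cuticle collagen genes tested, 39 were called lower and 1 higher (23.9% and 0.61%, against 3.25% and 4.91% of all identifiers), and the median log2 fold change was -0.98. At the adjusted p alone 73 were lower and 4 higher (44.8% and 2.45%, against 18.7% and 20.2%). *col-43* stood at -1.02 and -0.88 in *hpl-1*; *hpl-2*, against 3.97 and 3.92 in *hpl-1 his-24* (log2 fold change -4.90, SE 0.14, adjusted p = 5.4e-06). *col-2* stood at -5.28 and -5.59, against -0.59 and -0.71 in *hpl-1 his-24* (-4.78, SE 0.13), and *col-163* was at least 27.3-fold lower. The calls did not cover the family, and the adult collagens *col-19* (-0.28, SE 0.25) and *col-7* (-0.27, SE 0.33) did not pass the test. *col-95*, a member higher at the adjusted p, stood at 2.41 and 2.36, against 1.05 and 1.33 in *hpl-1 his-24* (log2 fold change 1.2, SE 0.13, adjusted p = 7.4e-04). The member called higher, *col-52*, was dark in *hpl-1 his-24* and at least 1.09-fold higher. The median level of the *col* genes was -0.23 on both *hpl-1*; *hpl-2* arrays, 0.81 and 0.76 in the triple mutant, -2.39 and -1.09 in *hpl-2*; *his-24* and 1.06 and 1.09 in *hpl-1 his-24*. The *hpl-2*; *his-24* replicates were further apart than those of the other strains.

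Hedgehog-related genes encode secreted proteins of the epidermis and the apical matrix, and the list also holds the patched-related genes (*ptr*). Of 79 tested, 19 were called lower and 1 higher (24.05% and 1.27%, against 3.25% and 4.91% of all identifiers), with a median of -0.85. At the adjusted p alone 43 were lower and 5 higher (54.4% and 6.33%, against 18.7% and 20.2%). Of the 22 *ptr* genes among them, 2 were called lower, and 8 were lower and 3 higher at the adjusted p alone. *grl-25* was at least 57.1-fold lower, at -8.83 and -8.74 in *hpl-1*; *hpl-2*, against -0.73 and -0.87 in *hpl-1 his-24*, and *grl-19* was at least 48.7-fold lower. *grl-23* stood at -6.83 and -7.40, against -0.21 and -0.29 in *hpl-1 his-24* (log2 fold change -6.87, SE 0.33, adjusted p = 2.7e-05), where 1 *hpl-1*; *hpl-2* array did not measure it. These genes were bright on both *hpl-1 his-24* arrays and at or near background in *hpl-1*; *hpl-2*. Of the 27 *grl* genes tested, 10 were called lower and 0 higher by limma, with 1 higher at an unadjusted p under 0.05. *grd-16* was the member called higher (1.92, SE 0.11, adjusted p = 5.5e-05). Of the 66 genes of the whole list measured on all 4 arrays, 12 were called lower and 1 higher (2.34% and 3.17% of all identifiers measured so). Of 23 moulting genes, 13 were lower and 1 higher at the adjusted p alone (56.5% and 4.35%, against 18.7% and 20.2% of all identifiers). Only *ptr-18* reached the threshold of a call (-1.58, SE 0.39, adjusted p = 0.019), which it lost without 1 array of either strain. The one that was higher was *nhr-23*, a receptor that drives the moulting cycle (transcript C01H6.5a, 0.52, SE 0.09, adjusted p = 0.0043), whose dimmer transcript C01H6.5b.2 did not pass the test (-0.18, SE 0.14).

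Of 10 markers of the hypodermis, 2 were lower and 1 higher at the adjusted p (20% and 10%, near the 18.7% and 20.2% of all identifiers) and none was called by limma, with 1 higher and 3 lower at an unadjusted p under 0.05. Their median log2 fold change was -0.52. Their summed signal, in units of the 75th percentile, was 22 and 22.2 in *hpl-1*; *hpl-2* and 42.3 and 44.8 in *hpl-1 his-24*. This sum rests on a few bright members, and the median level of the list was 0.19 and 0.05 in *hpl-1*; *hpl-2*, against 0.18 and 0.20 in *hpl-1 his-24*. Of these markers, 5 are themselves collagen genes, and the members that passed as lower were *dpy-7* (-0.59, SE 0.14) and *che-14* (-0.89, SE 0.14). All 5 markers of the adult cuticle had negative fold changes, with a median of -0.46, and 1, *bli-2*, passed the adjusted p (-0.96, SE 0.19). Of the hypodermal transcription factors, *elt-3* (-0.22, SE 0.10, adjusted p = 0.11) and *elt-1* (-0.11, SE 0.16) did not pass the test, and *lin-26* was higher (0.38, SE 0.10, adjusted p = 0.023; up to 0.121 over the alternatives). In whole animals, fewer cells of a type and less RNA per cell cannot be told apart, and the part that stage or the amount of hypodermal tissue had in the falls was not tested.

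Genes of fat metabolism fell widely but mostly by modest amounts. Desaturases place the double bonds of fatty acids, and 5 of the 7 *fat* genes were lower at the adjusted p (18.7% of all identifiers). *fat-7*, a stearoyl-CoA desaturase, stood at -4.09 and -4.23 in *hpl-1*; *hpl-2*, against -1.38 and -1.34 in *hpl-1 his-24* (log2 fold change -2.80, SE 0.19, adjusted p = 9.97e-05). Its close paralogue *fat-6* did not pass the test (-0.22, SE 0.17). *fat-3*, the delta-6 desaturase, was lower by 1.2 (SE 0.11), and *fat-4* and *fat-1* by 1.05 (SE 0.08) and 0.90 (SE 0.11). Of the 20 desaturases and elongases, 10 were lower and 1 higher at the adjusted p alone, with a median of -0.39. These shares were 50% and 5%, against 18.7% and 20.2% of all identifiers.

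Lysosomal lipases release fatty acids from stored fat, and all 6 *lipl* genes tested had negative fold changes, of which 5 passed the adjusted p. *lipl-3* fell most, at -2.70 and -2.73 in *hpl-1*; *hpl-2*, against 1.5 and 1.53 in *hpl-1 his-24* (log2 fold change -4.23, SE 0.18, adjusted p = 1.9e-05). *lipl-2* (-2.09, SE 0.32) and *lipl-4* (-1.95, SE 0.30) were also called lower. In the whole lipase list of 24, 4 were called lower and 1, *lips-11*, higher (2.1, SE 0.38, adjusted p = 0.0062). These shares were 16.7% and 4.17%, against 3.25% and 4.91% of all identifiers. Of 60 genes of fatty acid activation and oxidation, 30 were lower and 2 higher at the adjusted p alone (18.7% and 20.2% of all identifiers), with a median of -0.43, and 2 were called. These were *acox-1.2*, an acyl-CoA oxidase of the peroxisome, at -3.44 and -3.55, against -0.28 and -0.85 in *hpl-1 his-24* (-2.93, SE 0.34), and *cpt-3*, related to carnitine palmitoyltransferases, at -4.37 and -4.19, against -1.52 and -1.51 in *hpl-1 his-24* (-2.77, SE 0.29). The fatty acid and retinol binding proteins *far-3* (-1.77, SE 0.28) and *far-7* (-1.69, SE 0.11) fell, whereas *far-5* did not pass the test (-0.26, SE 0.13, adjusted p = 0.16).

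Of 13 intestinal markers, 8 were lower and 1 higher at the adjusted p (61.5% and 7.69%, against 18.7% and 20.2% of all identifiers). Their median log2 fold change was -0.49, which was -0.22 under quantile normalization. *ges-1*, a gut esterase, stood at 0.73 and 0.64 in *hpl-1*; *hpl-2*, against 1.79 and 1.74 in *hpl-1 his-24* (-1.08, SE 0.20, adjusted p = 0.0063). The summed signal of the list was 207 and 269 in *hpl-1*; *hpl-2* and 326 and 301 in *hpl-1 his-24*. *elt-2*, the main transcription factor of the gut, was not lower (0.26, SE 0.08, adjusted p = 0.048; not passed in 12 of the alternatives). The part of the intestine's share of RNA in the falls of gut genes was not tested.

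Stress genes moved in both directions. Of 19 cytosolic heat shock genes, 7 were higher and 4 lower at the adjusted p (36.8% and 21.1%, against 20.2% and 18.7% of all identifiers). Of 13 organelle chaperones, 1 was higher and 2 were lower (7.69% and 15.4%). The small heat shock genes *hsp-12.3* and *hsp-12.6* fell, the first at -1.43 and -1.42 in *hpl-1*; *hpl-2*, against 1.75 and 1.86 in *hpl-1 his-24* (log2 fold change -3.23, SE 0.19, adjusted p = 5.8e-05). *hsp-12.6* stood at -4.97 and -4.77, against -1.60 and -1.44 in *hpl-1 his-24* (-3.35, SE 0.25, adjusted p = 1.3e-04). The heat-inducible *hsp-16* genes went the other way, and all 6 tested were higher at the adjusted p, by 0.51 to 1.45, without a call. *hsp-16.2* stood at -0.29 and -0.12 in *hpl-1*; *hpl-2*, against -1.76 and -1.56 in *hpl-1 his-24* (1.45, SE 0.11, adjusted p = 1.7e-04). In the other strains its mean was higher still, 1.40 in the triple mutant and 0.66 in *hpl-2*; *his-24*. Several *hsp-16* genes are near-identical copies, so that they are not separate measurements.

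The metallothionein gene *mtl-1* stood at -1.06 and -0.96 in *hpl-1*; *hpl-2*, against 3.52 and 3.73 in *hpl-1 his-24* (log2 fold change -4.63, SE 0.36, adjusted p = 1.7e-04). The ferritin gene *ftn-1* fell by 1.88 on the log2 scale (SE 0.16), and the manganese superoxide dismutase gene *sod-3* was lower by 1.08 (SE 0.17, adjusted p = 0.0034). Of 21 oxidative stress and metal genes, 5 were lower and 2 higher at the adjusted p (23.8% and 9.52%, against 18.7% and 20.2% of all identifiers). The list had 2 calls, both lower. *mtl-1*, *sod-3* and *hsp-12.6* are known as genes that DAF-16/FOXO turns on, and *pud* genes respond to the same pathway. Of 19 DAF-16 responsive and *dod* genes, 6 were called lower and 2 higher (3.25% and 4.91% of all identifiers), with a median of -0.47. The list mixes genes that DAF-16 turns on with genes, such as *ins-7*, that it keeps down. Its counts and median therefore give no direction for the pathway, whose activity was not tested. Those called higher were *dod-23* (2.88, SE 0.20), at 4.39 and 4.71, against 1.49 and 1.86 in *hpl-1 his-24*, and *ins-7*, an insulin gene that DAF-16 is known to keep down. *ins-7* stood at 1.70 and 1.94 in *hpl-1*; *hpl-2*, against -1.08 and -0.95 in *hpl-1 his-24* (2.84, SE 0.14, adjusted p = 3.0e-05). *ins-8*, dark in *hpl-1 his-24*, was at least 14-fold higher (adjusted p = 2.7e-04), and *ins-31*, dark in *hpl-1*; *hpl-2*, at least 11.7-fold lower (adjusted p = 1.1e-04).

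**Figure D5:**
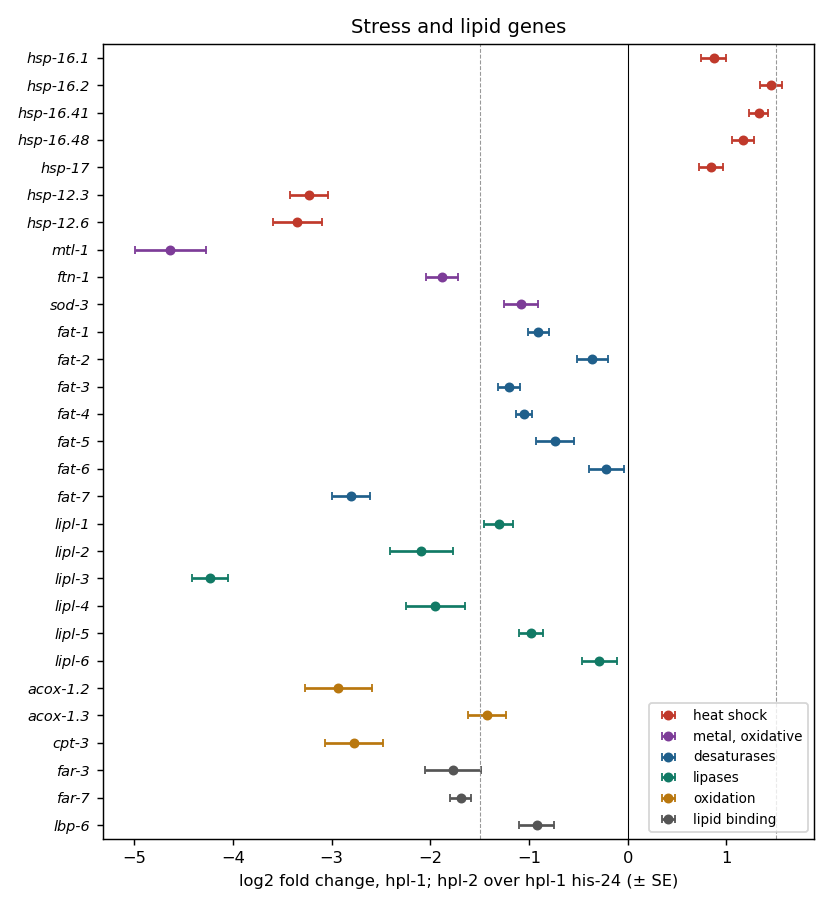
Log2 fold change, *hpl-1*; *hpl-2* over *hpl-1 his-24* (x axis, points, with bars for the SE of the limma fit), of stress and lipid genes, with dashed lines at -1.5 and 1.5. The *hsp-16* genes lie to the right of 0, while *mtl-1*, *hsp-12.3*, *hsp-12.6*, *fat-7* and *lipl-3* lie beyond the dashed line on the left.

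Genes of the innate immune response moved in both directions. C-type lectins, sugar-binding secreted proteins, had 35 members called lower and 21 higher among 180 tested (19.4% and 11.7%, against 3.25% and 4.91% of all identifiers), with a median of -0.26. Among these, *clec-67*, *clec-68*, *clec-70*, *clec-71* and *clec-72* were neighbours on chromosome IV that all fell, *clec-70* by 2.67 on the log2 scale (SE 0.21). *clec-190* rose, at 2.74 and 2.79 in *hpl-1*; *hpl-2*, against -0.71 and -0.62 in *hpl-1 his-24* (3.44, SE 0.13, adjusted p = 1.1e-05), and *clec-44* was at least 13.3-fold higher. With normexp correction 24 were called lower and 11 higher, and the deposited log2 values gave 23 and 11. A list of 98 genes held lysozymes, saposins and other antimicrobial effectors, together with protease genes of the *asp* and *cpr* families. Of these, 16 were called lower and 4 higher (16.3% and 4.08%), with a median of -0.59, or 10 and 4 in the deposited log2 values. The *asp* proteases gave 6 of the lower calls, the *cpr* proteases 1 and the *irg* genes 3. Of 8 *irg* genes tested, 7 were lower at the adjusted p (18.7% of all identifiers). All 4 calls higher were *abf* genes, of which *abf-3* was dark in both strains. The aspartyl protease gene *asp-8* fell, at -0.40 and -0.42, against 2.43 and 2.54 in *hpl-1 his-24* (-2.89, SE 0.16), and all 16 *asp* genes had negative fold changes, of which 13 passed the adjusted p. Of the antibacterial factor genes (*abf*), the 5 that were measured in at least 1 strain were higher at the adjusted p, *abf-5* at -0.15 and -0.03, against -2.22 and -2.08 in *hpl-1 his-24* (2.06, SE 0.12, adjusted p = 4.8e-05).

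Cytochrome P450 genes, which oxidize drugs, sterols and fatty acids, had 12 members called lower and 1 higher among 73 (16.44% and 1.37%, against 3.25% and 4.91% of all identifiers), or 9 and 0 with normexp correction and 8 and 0 in the deposited log2 values. *cyp-37B1* stood at -0.47 and -0.55 in *hpl-1*; *hpl-2*, against 1.91 and 1.84 in *hpl-1 his-24* (log2 fold change -2.39, SE 0.12, adjusted p = 3.8e-05). *cyp-34A9* fell by 1.79 on the log2 scale (SE 0.15), while *cyp-34A2* was higher by 1.35 (SE 0.09, adjusted p = 1.1e-04) and *cyp-33D3* did not pass the test (-0.04, SE 0.14). Of 62 glucuronosyltransferase genes (*ugt*), 18 were higher and 24 lower at the adjusted p alone, with a median of -0.29. These shares were 29.03% and 38.71%, against 20.2% and 18.7% of all identifiers. Called were 5 higher (8.065%), among them *ugt-13* (1.82, SE 0.11), and 1 lower (1.613%), *ugt-6* (-1.70, SE 0.20). With normexp correction or in the deposited log2 values, 3 were called higher and 2 lower. Glutathione S-transferases had 3 higher and 2 lower, near the share of all identifiers (6.82% and 4.55%), and 1 and 1 with normexp correction or in the deposited log2 values, with *gst-19* at -3.75 and -3.68, against 0.20 and 0.15 in *hpl-1 his-24* (-3.89, SE 0.11, adjusted p = 4.6e-06). Among 208 nuclear hormone receptors, 3 were called higher and 4 lower, shares below those of all identifiers, and *nhr-60* was lower without a call (-1.48, SE 0.10).

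Among chromatin genes, the neighbouring synMuv genes *lin-15A* and *lin-15B* on chromosome X rose. *lin-15A* stood at 1.34 and 1.35 in *hpl-1*; *hpl-2*, against -0.85 and -0.89 in *hpl-1 his-24* (log2 fold change 2.21, SE 0.10, adjusted p = 2.1e-05). *lin-15B*, which encodes a DNA-binding regulator of the synMuv B class, stood at 0.65 and 0.52, against -1.55 and -1.59 in *hpl-1 his-24* (2.16, SE 0.14, adjusted p = 7.8e-05). In the triple mutant the mean of *lin-15A* was 1.01 and that of *lin-15B* 0.24, and in *hpl-2*; *his-24* these were 1.57 and 0.73, so that both genes were low in *hpl-1 his-24* only. The synMuv A gene *lin-8* was higher by 1.23 (SE 0.11, adjusted p = 3.0e-04). Of 28 HP1, synMuv (A and B) and H3K9 methyltransferase genes tested, 11 were higher at the adjusted p and 2, *hpl-1* and *hpl-2*, were lower. These shares were 39.3% and 7.14%, against 20.2% and 18.7% of all identifiers. Besides *lin-15A*, *lin-15B* and *lin-8*, the members that were higher had log2 fold changes from 0.29 (*efl-1*) to 0.43 (*set-32*). Of 34 Argonaute and small RNA genes, 9 were higher and 0 lower at the adjusted p of limma alone, or 11 and 0 at an unadjusted p under 0.05. The share higher, 26.5%, is near the 20.2% of all identifiers. The Argonaute gene *vsra-1* was called, at 1.52 and 1.45, against -0.26 and -0.29 in *hpl-1 his-24* (1.76, SE 0.11, adjusted p = 7.3e-05).

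Hox genes set position along the body, and a question of the study was whether HP1 and HIS-24 repress them. It reported ectopic *mab-5* and *egl-5* reporter signal in *hpl-2*; *his-24* males, with more endogenous EGL-5 protein in such males. It also reported HIS-24 bound at both genes in chromatin immunoprecipitation. Without showing the data, it stated that *mab-5* was slightly higher on its arrays of the triple mutant. For both strains compared here it reported normal male rays. The values below are RNA levels of pools of whole animals of these strains, and those findings were not tested. *mab-5* did not pass the test, at -1.67 and -1.62 in *hpl-1*; *hpl-2*, against -1.72 and -1.53 in *hpl-1 his-24* (log2 fold change -0.02, SE 0.18, adjusted p = 0.94). *egl-5*, at -5.63 and -5.46, against -4.8 and -5.0 in *hpl-1 his-24*, was lower by 0.64 (SE 0.16, adjusted p = 0.022), and lost this without 1 array of either strain (adjusted p up to 0.119). The posterior gene *nob-1* was lower, at -2.55 and -2.60, against -1.61 and -1.59 in *hpl-1 his-24* (-0.98, SE 0.08, adjusted p = 2.3e-04). None of these genes was called. *ceh-40*, which encodes a PBC-class cofactor of Hox proteins, was the called member of this list, at -1.65 and -1.41, against -3.10 and -3.11 in *hpl-1 his-24* (1.57, SE 0.12, adjusted p = 1.4e-04), though its log2 fold change was under 1.5 with normexp correction, in the deposited log2 values and without 1 *hpl-1*; *hpl-2* array (at least 1.46). Of the other regulators that the study names, *madf-2* (1.93, SE 0.09) and *zip-8* (transcript F23F12.9a, 1.65, SE 0.12) rose, *lim-7* was lower (-1.2, SE 0.23), and *miz-1* did not pass the test (-0.14, SE 0.17).

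Chemoreceptor genes were mostly dark. Of 1258 on the array 320 were tested, many of which passed the filter on dim probes through a single strain. Measured on all 4 arrays were 94, of which 7 were called higher and 2 lower (3.17% and 2.34% of all identifiers measured so). The tested set held 49 higher and 18 lower calls (15.31% and 5.625%, against 4.91% and 3.25% of all identifiers). Of these calls, 36 and 15 were genes dark in the lower strain. *sri-31* was at least 19.8-fold higher and *srd-60* at least 13.6-fold higher. The counts were 17 and 3 under normexp correction.

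Of 25 germline and P granule genes, 13 were higher and 0 lower at the adjusted p of limma (52% and 0%, against 20.2% and 18.7% of all identifiers, and 17 and 0 genes at an unadjusted p under 0.05), with a median of 0.40 and no call, and *meg-1* was higher by 1.13 (SE 0.14, adjusted p = 0.0013). The median of 18 oocyte and eggshell genes was 0.24 and that of 78 sperm genes -0.02, where the sign of the sperm median changed in 4 of the alternatives. The yolk protein genes were lower or did not pass the test, from -0.75 (SE 0.10) for *vit-1* to -0.18 (SE 0.35) for *vit-2*. Body wall muscle markers had a median of -0.03, whose sign also changed in 4 alternatives, with 1 of 11 higher and 1 lower at the adjusted p. Neuronal markers had a median of -0.37, with 8 of 20 lower at the adjusted p, among them the tubulin gene *mec-12* (-1.06, SE 0.11), and 3 higher, among them *unc-31* (1.14, SE 0.16). These shares were 40% lower and 15% higher, against 18.7% and 20.2% of all identifiers. Pharyngeal markers had a median of 0.81 (0.57 in the deposited log2 values), with 7 of 11 higher at the adjusted p, among them the myosin genes *myo-1* (1.1, SE 0.16) and *myo-2* (0.81, SE 0.14) and the transcription factor *ceh-22* (1.35, SE 0.11), whereas *pha-4* did not pass the test (0.01, SE 0.08). Of the 11 pharyngeal markers, 3 had negative fold changes, the lowest at -1.27, and 0 were lower at the adjusted p of limma. The shares higher and lower were 63.6% and 0%, against 20.2% and 18.7% of all identifiers. The summed pharyngeal signal was 9.88 and 10.4 in *hpl-1*; *hpl-2* and 5.40 and 5.86 in *hpl-1 his-24*. The median level of the list was not higher, at -2.80 and -2.63 in *hpl-1*; *hpl-2*, against -2.66 and -2.39 in *hpl-1 his-24*.

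Calls were spread over all chromosomes and were most frequent on chromosome V, where 6.82% of genes were called higher and 5.80% lower. Chromosome II had 6.38% and 2.86%, IV 4.60% and 3.71%, I 3.95% and 2.03%, X 3.90% and 2.71%, and III 2.79% and 1.32%. The median log2 fold change was -0.11 on X and between 0.02 and 0.07 on the autosomes. Within 1 Mb of *hpl-2*, 15 genes were called higher and 1 lower of 354. Within 1 Mb of *hpl-1* the counts were 18 and 15 of 280, and within 1 Mb of *his-24* they were 11 and 13 of 287, the deleted gene itself left out.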

How the data were processed

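Gene expression had been measured on 1-colour Agilent arrays, 2 per strain. The authors deposited the scanner intensities of each array, made with Agilent Feature Extraction (version 9.5.3.1 per the file headers), which subtracts background and replaces signals not above it by a small surrogate. These intensities carry no normalization between arrays. The authors also deposited a table of log2 values, which follows the quantile-normalized median brightness of the spots without background subtraction. Chromosomes are those of the array files, whose genome build is not given in the sources used here.

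Control and outlier spots were left out, the log2 intensity was taken relative to the 75th percentile of each array over 42964 non-control spots, spots of a probe were averaged, and an identifier was represented by its brightest probe. Identifiers well above background (at least 50% of spots) on both arrays of at least 1 of the 4 strains were tested. A linear model with 1 mean per strain was fitted to all 8 arrays with limma (version 3.58.1, R 4.3.3; 4 residual and 2.43 prior degrees of freedom), with Benjamini-Hochberg adjustment over 17092 identifiers, and was tested on simulated data. Python 3.11.15, pandas 2.3.3 and matplotlib 3.10.9 made tables and plots. For a lower bound, each array of the dark strain was set to the dimmest probe well above background there, or to the gene's own level where that was higher.

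The strains, members and gene lists were chosen with earlier results of these data known. Genes were named by a rule: the deleted genes and linker histones, the 12 largest rises and falls among called genes measured on all 4 arrays, the 4 largest bounds in each direction, all members of lists of at most 12 and otherwise up to 3 members per direction, and genes that the study names. Members of families and runs (*fbxb*, *pals*, *skr*, *pud*, *gtnt*, *clec*), together with single *fat* and *lipl* genes, *ztf-14*, *efl-1* and *set-32*, fall outside it and were named after their values were seen. Symbols were matched for 18124 of 19441 genes. Replicates were independent pools of worms per the series' design. With 2 arrays per strain, the number of arrays limits the precision, and an exact permutation test of 2 against 2 cannot go below p = 0.333.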

Additional observations from a re-analysis of the deposited data

How the results depend on the processing

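The counts of genes called higher and lower, 840 and 555, stayed within 1.5 times under quantile normalization, median scaling, no filter on dim probes, the mean over probes, only the 4 arrays, the slide as a random block and an intensity trend. They moved further where dim spots were treated differently: 453 and 362 with normexp background correction, 421 and 323 in the deposited log2 table, and 479 and 355 when every one of the 4 arrays had to measure a probe, which left fewer genes to test. At the adjusted p alone they were 3458 and 3203. Leaving out 1 array at a time gave 811 to 845 higher and 515 to 591 lower; a lone array was then assumed to vary like the other strains. Of the calls, 451 higher and 350 lower were shared with the normexp fit, and 408 and 301 with the deposited table. No slide held both strains, so the slide block (estimated correlation -0.226) could not separate slide from strain.

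With the replicate number as a block, the paired fit called 839 higher and 553 lower. The strains share only a number: deviations of same-numbered arrays correlated at 0.177 between the strains compared and at -0.298 between *hpl-1*; *hpl-2* arrays and those of the triple mutant.

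Of the 253 named identifiers past the adjusted p, 187 passed in every fit that gave a value, and 46 to 51 lost it without 1 array of the strains compared. Signs were reversed, at a passing adjusted p in the alternative only, for *lev-11* (0.32) and *unc-27* (0.35) under quantile normalization and for *rme-2* (0.32) in the deposited table; the cause was not tested. For dark genes, the signal over background sets only a bound, and a probe's place relative to a deletion was not analysed.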
